A study of Mus musculus with 3 samples.

Results

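In mouse blastocysts the genes Rtn3, Setd6, Ddx56, Homer1, Kash5, Traf3ip2 and 3010003L21Rik were lower, and Dusp18, Flrt1 and Numbl higher, after development from zygotes of aging females than from zygotes of young females, each by the same reading on a pair of array probes. They were chosen by their log2 differences between aging and young: of 4861 genes with at least 2 probes well above background on the young and on the aging array, these 10 (0.206%) had both of their 2 brightest probes more than 4-fold apart in one direction. The levels on the young and aging arrays are therefore the values that selected the genes, and they are described here without a test. The 10 genes had 22 probes in all on the array, of 56591 probes with a value on all 3 arrays. Of these, 20 are the probes that the choice used, and the remaining 2 are a further probe each for Homer1 and Ddx56.

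Each of the 3 arrays read RNA of 1 pool of 30 ICR mouse blastocysts, so there is 1 array per condition, no error between pools and no P-value. The mothers of the young embryos were 3 to 6 weeks old and those of the aging embryos 43 to 53 weeks old, in both cases mated after superovulation, and these embryos were cultured without additions. Suppressed aging embryos came from the same older age class and were cultured with 10 μg/ml of a neutralizing antibody to CXCL5 and 10 nM of a selective CXCR2 antagonist, which together block a chemokine and its receptor. Zygotes of all groups were collected 18 h after hCG and grown for 96 h in KSOM medium. On these arrays both blocking agents were given together and to aging embryos alone, so these data do not hold the effect of either agent by itself or on young embryos.

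Levels below are the log2 of the scanner's intensity, with the 75th percentile of the same array subtracted, so that 0 is the brightness of the probe at that percentile (an intensity of 145, 155 and 122 on the young, aging and suppressed aging array). A log2 difference of 2 is a 4-fold difference. Levels of different probes cannot be set against each other, since each probe binds its target with its own strength. The scanner's own error model gave each spot of the 20 probes that the choice used a log2 error of 0.144 to 1.06, with a median of 0.145. Probes printed on 8 or more spots had a median SD between spots of 0.053, 0.050 and 0.045 on the young, aging and suppressed aging array. For those above background at a level below 0 the median SD was 0.17, 0.18 and 0.21. These errors cover the reading of 1 array and leave out the spread between pools of embryos, which was not measured. Defining genes of trophectoderm (6 of 6), inner cell mass (5 of 5) and primitive endoderm (4 of 4) were above background on all 3 arrays. Some of their levels moved between the young and the aging array by over 2-fold: Sox2 from 1.004 to 2.37, Klf2 from 2.29 to 3.60, Esrrb from 1.07 to 2.18, Pdgfra from 0.31 to 1.59, Tfap2c from 5.74 to 4.58 and Sox17 from 0.91 to -0.62. Of 7 genes of cumulus and granulosa cells 3 were above background on each array. Their summed intensity of 53633 to 58732 was nearly all from Foxl2 (53552 to 58645), while Amh was at 9.52 to 14.4, Cyp19a1 at 60.7 to 64.0, and Has2, Ptx3, Tnfaip6 and Fshr were not well above background on any array. Of 4 blood genes 1, 3 and 1 were above background on the young, aging and suppressed aging array, with summed intensities of 125, 274 and 61.3. All 4 sperm genes were above background, with a summed intensity of 190 to 248. The part of these cell types in the differences was not tested. In pooled embryos fewer cells of a type and less RNA per cell cannot be told apart.

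The 10 genes were chosen without regard to function and have different roles. A reticulon such as Rtn3 bends the membrane of the endoplasmic reticulum into tubules, whereas Homer1 is a scaffold that clusters receptors, and Flrt1 is a leucine-rich repeat protein of the cell surface. Traf3ip2 encodes ACT1, the adaptor that carries the signal of the interleukin 17 receptor to NF-kB, Setd6 a lysine methyltransferase whose best known substrate is the NF-kB subunit RELA, Numbl an endocytic adaptor related to the Notch inhibitor Numb, and Dusp18 a phosphatase of the dual-specificity family. Kash5 is a nuclear envelope protein that couples meiotic chromosomes to dynein, Ddx56 is a nucleolar RNA helicase of ribosome assembly, and 3010003L21Rik is a long noncoding RNA.

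Probe sequences were not used here, and the start regions of the genes are shown instead. RefSeq promoters, from 250 bases before to 50 bases after the annotated start on GRCm38.p6, were listed for 8 of the 10 genes, in 9 windows since Homer1 has 2. The windows of Rtn3, Setd6 and Ddx56, which were over 4-fold lower on both arrays of older females on bright spots, and of Numbl, which was higher on both, are shown as examples of each direction and are printed 5′ to 3′ on the gene's strand. Capitals mark GC boxes, searched as GGGCGG on both strands, and CCAAT boxes, searched as CCAAT on both strands.
Rtn3 (chr19:7483242-7483541, minus strand): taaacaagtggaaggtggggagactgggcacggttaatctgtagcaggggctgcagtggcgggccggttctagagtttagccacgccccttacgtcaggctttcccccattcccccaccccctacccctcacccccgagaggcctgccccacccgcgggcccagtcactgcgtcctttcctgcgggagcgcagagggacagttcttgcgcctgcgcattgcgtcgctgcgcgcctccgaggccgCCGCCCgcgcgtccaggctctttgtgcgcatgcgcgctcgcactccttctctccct
Setd6 (chr8:95715663-95715962, plus strand): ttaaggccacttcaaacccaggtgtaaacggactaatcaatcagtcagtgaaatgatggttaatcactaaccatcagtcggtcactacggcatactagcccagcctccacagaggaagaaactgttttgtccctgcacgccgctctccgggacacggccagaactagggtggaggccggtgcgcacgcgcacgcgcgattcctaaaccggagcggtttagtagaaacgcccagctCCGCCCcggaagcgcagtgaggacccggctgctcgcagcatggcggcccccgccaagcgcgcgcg
Ddx56 (chr11:6267680-6267979, minus strand): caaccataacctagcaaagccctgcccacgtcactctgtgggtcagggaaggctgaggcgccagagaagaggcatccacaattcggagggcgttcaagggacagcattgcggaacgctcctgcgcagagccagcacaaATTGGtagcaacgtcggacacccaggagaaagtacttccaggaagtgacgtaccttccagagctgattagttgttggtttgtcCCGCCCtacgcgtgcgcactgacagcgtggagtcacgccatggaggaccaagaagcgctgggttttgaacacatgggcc
Numbl (chr7:27258511-27258810, plus strand): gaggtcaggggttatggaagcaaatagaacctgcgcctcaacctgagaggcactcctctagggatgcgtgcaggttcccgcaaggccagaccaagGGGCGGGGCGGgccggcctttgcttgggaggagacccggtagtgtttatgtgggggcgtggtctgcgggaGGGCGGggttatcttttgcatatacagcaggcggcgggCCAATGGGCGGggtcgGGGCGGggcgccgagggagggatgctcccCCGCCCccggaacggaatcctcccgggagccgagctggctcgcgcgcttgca
The windows of the 3 genes that were lower hold 1 GC box each, and that of Numbl holds 6, of which a pair overlaps, and a CCAAT box next to one of them. The capitals of Ddx56 are the reverse strand of a CCAAT box, followed by a GC box. Over the 9 windows, 7 held a GC box, against 35.7% of all 32851 promoters, and 2 held a CCAAT box, against 37.4%. A TATA box (TATAAA on both strands) was in 0 of the 9 windows and in 13.6% of all promoters. The windows were 44.7% to 71.7% G or C, beside a median of 52.7% over all promoters, and held 7 to 37 CpG dinucleotides, beside a median of 7. No match to these motifs was in either window of Homer1. The matches describe these windows, and binding was not measured.

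**Figure D1:**
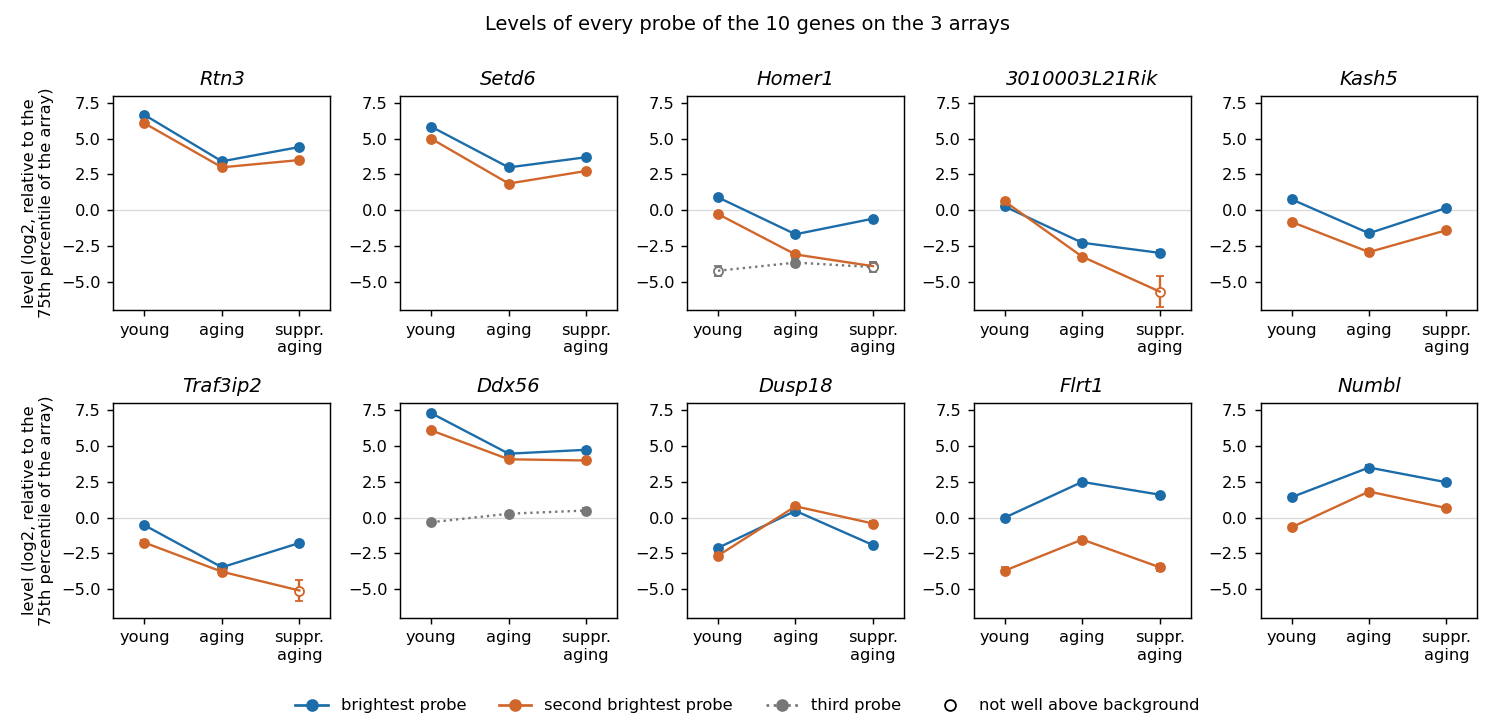
Level of every probe of the 10 genes (log2 intensity minus the 75th percentile of the array, vertical axis) on the young, aging and suppressed aging array (horizontal axis, 1 pool of 30 blastocysts each). Error bars are the scanner's error of the spot and not a spread between pools, and open symbols are not well above background. Kash5 lies near its young level in suppressed aging by both probes, whereas Rtn3, Setd6 and Ddx56 stay low by their 2 brightest probes. The third probe of Ddx56 does not follow them.

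Of the genes of membranes and scaffolds, Rtn3 was lower in aging blastocysts by both probes and remained low in suppressed aging blastocysts. Its brightest probe read 6.65, 3.40 and 4.41 on the young, aging and suppressed aging array, from intensities of 14537, 1637 and 2592. The second probe read 6.07, 2.99 and 3.49. Young blastocysts therefore stood apart from both pools of older females on each probe. Aging was 9.47-fold and 8.46-fold lower than young by the brightest and the second probe, and suppressed aging was 4.74-fold and 5.95-fold lower than young. Suppressed aging was 2.00-fold and 1.42-fold higher than aging. Rtn3 had the largest smaller difference of the 10 genes, 3.08 by the second probe.

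Most other genes that shape the endoplasmic reticulum were within 2-fold. Of 15 reticulons, atlastins, Reep proteins and partners that could be compared between aging and young, 0 were over 2-fold higher and 2 lower by their brightest probe (13.3%, beside 19.0% of all 16164 named genes), and their median log2 difference was 0.12, beside 0.02 for all named genes. The counts for other families below are likewise by the brightest probe of each gene, and other probes of a gene can differ. The lower ones included Lnpk (lunapark), which stabilizes junctions of the tubules. Lnpk read 2.37, 0.38 and 0.94 on the young, aging and suppressed aging array, a log2 difference of -1.99 between aging and young, while another probe of Lnpk differed by 0.32 the other way.

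Homer1 was lower in aging than in young blastocysts by both probes, but the probes parted in suppressed aging blastocysts. The brightest probe read 0.89, -1.69 and -0.61 on the young, aging and suppressed aging array, and the second, which is assigned to another transcript of the gene, read -0.28, -3.10 and -3.92. Suppressed aging thus lay between the other arrays by the brightest probe and below both of them by the second. The log2 differences between aging and young were -2.58 and -2.82, those between suppressed aging and young -1.49 and -3.64, and those between suppressed aging and aging 1.09 and -0.82, the last of which came to 0.026 with normexp background correction. With that correction the differences between suppressed aging and young were -1.10 and -1.13, so the parting of the probes from young depended on the processing. The suppressed aging spot of the second probe was dim, with a median pixel 14.5 counts above its local background. The third probe of Homer1, of still another transcript, was called above background on the aging array alone, at -3.68, which is at least 1.44-fold above its young level. The median pixel of this aging spot was 0 counts from its local background. The scanner's log2 error of the spot was 0.24 in aging and 0.34 in young. Homer1 is the one gene of the 10 whose 2 brightest probes are assigned to different transcripts.

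Among receptors and scaffolds that work with Homer proteins, 8 could be compared between aging and young, and 1 of them was over 2-fold apart (12.5%, beside 19.0% of all named genes). This was Homer2, a paralog of Homer1. Homer2 read 0.27, -1.98 and -0.81 on the young, aging and suppressed aging array, by its single probe, with log2 differences from young of -2.25 in aging and -1.09 in suppressed aging.

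Flrt1 was higher in aging than in young blastocysts, and the probes placed suppressed aging differently. The brightest probe read 0.00076, 2.50 and 1.60 on the young, aging and suppressed aging array, and the second read -3.71, -1.53 and -3.47. By the brightest probe suppressed aging was 3.03-fold above young and 1.86-fold below aging. By the second it was 1.18-fold above young and 3.83-fold below aging. With normexp background correction the log2 differences from aging came to -0.96 and -0.50, and those from young to 1.15 and 0.16. The larger drop from aging by the second probe thus depended on the processing. The young spot of the second probe was dim, with a median pixel at -0.5 counts from its local background, although the scanner software called it above background. In the RefSeq gene table Flrt1 overlaps Macrod1, which read -0.92, -0.60 and -3.03, a log2 difference of 0.31 between aging and young and of -2.11 between suppressed aging and young. It also overlaps 5730409K12Rik, an RNA without a protein, which was above background in aging and suppressed aging but not in young blastocysts with a log2 difference of at least 2.42 between aging and young. Of 7 other FLRT family members and partners compared, 0 were over 2-fold apart in aging against young by the brightest probe, beside 19.0% of all named genes, and the largest measured difference by that probe, -0.84, was that of the latrophilin Adgrl2. Another probe of the latrophilin Adgrl1 differed by 2.18, while its brightest differed by 0.53.

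Among the signalling genes, Traf3ip2 was lower in aging than in young blastocysts, on dim spots. Its brightest probe read -0.53, -3.47 and -1.77 on the young, aging and suppressed aging array. The second read -1.75 and -3.78, and on the suppressed aging array it was not well above background, at -5.10. Aging was 7.69-fold and 4.10-fold lower than young by these probes. Suppressed aging was 2.37-fold lower than young by the brightest probe, and by the second it was at least 4.55-fold lower. Against aging, suppressed aging was 3.25-fold higher by the brightest probe and at least 1.11-fold lower by the second. This bound, a log2 difference of -0.15 or lower, is smaller in size than the scanner error of 0.25 of the aging spot. The second probe thus gives no direction here. With normexp background correction the brightest probe in suppressed aging was 0.57 above aging and -0.55 from young on the log2 scale. The median pixels of the aging spots lay 9.5 and 2.5 counts above their local background, against 93 and 36 in young. E130307A14Rik, a noncoding gene that overlaps Traf3ip2, read 1.06, 1.11 and 1.25, with differences no larger than 0.19.

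Of 28 genes from the interleukin 17 receptors to NF-kB that could be compared between aging and young, 3 were over 2-fold higher and 3 lower (21.4%, beside 19.0% of all named genes), and 1 in each direction was over 4-fold apart (7.14%, beside 4.09%). Tab1, a partner of the kinase TAK1, read -0.35, 1.73 and -0.79 on the young, aging and suppressed aging array. It was therefore 2.07 higher on the log2 scale in aging and 0.44 below young in suppressed aging, on 1 probe. Il17f, a ligand of the receptor, read -2.25 in young and was not well above background on the other arrays, which puts it at -2.07 or lower in aging against young. The median log2 difference of the pathway's measured genes was 0.33.

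Numbl was higher in aging than in young blastocysts and intermediate in suppressed aging blastocysts by both probes. For Numbl the brightest probe read 1.43, 3.50 and 2.47, and the second read -0.68, 1.82 and 0.67. The suppressed aging array lay between the other arrays by each of them. Aging was 4.22-fold and 5.66-fold higher than young, and suppressed aging 2.06-fold and 2.55-fold higher than young. Suppressed aging was 2.05-fold and 2.22-fold lower than aging, and these 2 readings differed by 0.12 on the log2 scale, the closest of the 8 genes with both probes measured on all arrays. Of 15 other genes of Numb and Notch compared, 0 were over 2-fold apart in aging against young by the brightest probe, beside 19.0% of all named genes, and the largest difference by that probe was that of the endocytic protein Eps15, at -0.90, with 0.17 and -0.04 by its other probes. Other probes of Pard3 and Itch differed by 1.15 and -1.11, with 0.58 and 0.16 by their brightest.

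Dusp18 was higher in aging than in young blastocysts by both probes, and the probes parted in suppressed aging. Its brightest probe read -2.12, 0.47 and -1.92, and the second read -2.66, 0.79 and -0.41, on the young, aging and suppressed aging array. By the brightest probe suppressed aging was close to young, at a log2 difference of 0.20, and 5.24-fold lower than aging. By the second it remained 4.76-fold above young and was 2.30-fold below aging. Aging was 6.01-fold and 10.96-fold higher than young. The median pixels of the young spots lay 21 and 16 counts above their local background. With normexp background correction the log2 differences between aging and young came to 1.38 and 1.91. Those between suppressed aging and young came to 0.059 and 0.88 with it. Of 19 other dual-specificity phosphatases compared, 4 were over 2-fold higher and 1 lower in aging than in young (26.3%, beside 19.0% of all named genes). Dusp22 was over 4-fold higher, at -3.70, -1.70 and -2.94 on the 3 arrays, with a log2 difference of 2.00 on its single probe.

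Setd6 was lower in aging than in young blastocysts and remained low in suppressed aging blastocysts. For Setd6 the brightest probe read 5.83, 2.98 and 3.69 and the second read 4.99, 1.85 and 2.73. Young stood above both pools of older females by each probe. Aging was 7.19-fold and 8.79-fold lower than young, and suppressed aging was 4.39-fold and 4.78-fold lower than young. Suppressed aging was 0.71 and 0.88 above aging on the log2 scale. Setd6 overlaps Cnot1, a scaffold of the CCR4-NOT deadenylase, and Cnot1 was 0.75 higher in aging than in young. Of 14 other SET domain methyltransferases and substrates compared, 0 were over 2-fold higher and 1 lower by the brightest probe (7.14%, beside 19.0% of all named genes), Setd4 at -1.06 on the log2 scale. The other 2 probes of Setd4 differed by -1.38 and -0.07, and another probe of Setd1b by 1.297.

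Kash5 was lower in aging than in young blastocysts, and both of its probes on the suppressed aging array read less than 2-fold from young, as those of no other of the 10 genes did. With normexp background correction both probes of Dusp18 did too, at log2 differences of 0.059 and 0.88. For Kash5 the brightest probe read 0.75, -1.62 and 0.15, and the second read -0.83, -2.94 and -1.41. Suppressed aging lay nearer to young than to aging by each of them. Aging was 5.19-fold and 4.32-fold lower than young. Suppressed aging was 1.52-fold and 1.50-fold lower than young, and 3.42-fold and 2.89-fold higher than aging. The readings of the 2 probes against young differed by 0.019 on the log2 scale. The median pixel of the aging spot of the second probe was 11 counts above its local background. With normexp background correction suppressed aging was 1.13 and 0.65 above aging on the log2 scale, and -0.31 and -0.21 from young.

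Kash5 belongs to the nuclear envelope complex of SUN and KASH proteins. Of 14 other genes of this complex, its meiotic partners and the lamins compared, 3 were over 2-fold higher and 1 lower in aging than in young (28.6%, beside 19.0% of all named genes). The largest difference by the brightest probe was that of Syne2 (nesprin-2), which joins the nucleus to the cytoskeleton. Syne2 read -0.94, 0.79 and 0.59 on the young, aging and suppressed aging array and was thus 1.73 higher in aging and 1.54 higher in suppressed aging than in young.

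Ddx56, of ribosome assembly, was lower on both arrays of older females by its 2 brightest probes. The brightest probe of Ddx56 read 7.30, 4.47 and 4.74 and the second read 6.10, 4.08 and 3.99, from intensities of 22854, 3420 and 3269 for the brightest. Aging was 7.13-fold and 4.05-fold lower than young, and suppressed aging was 5.90-fold and 4.30-fold lower than young. Between suppressed aging and aging the differences were 0.27 and -0.085 on the log2 scale. The third probe of Ddx56 did not follow them. It read -0.32, 0.27 and 0.50, and was 1.51-fold higher in aging and 1.77-fold higher in suppressed aging than in young. Of 24 other helicases and factors of ribosome assembly, all compared, 1 was over 2-fold higher and 0 lower by the brightest probe (4.17%, beside 19.0% of all named genes). This was Ftsj3, a methyltransferase of ribosomal RNA, at 1.04 by the brightest probe, and 0.37 and -0.28 by the others. Another probe of Dhx33 was 1.37 higher.

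The noncoding RNA 3010003L21Rik was lower in aging and in suppressed aging than in young blastocysts. The brightest probe read 0.25, -2.29 and -2.996 on the young, aging and suppressed aging array. The second read 0.60 and -3.26, and was not well above background in suppressed aging, at -5.70. Young was the highest by both probes. Aging was 5.79-fold and 14.5-fold lower than young. Suppressed aging was 9.46-fold lower than young by the brightest probe and at least 23.1-fold lower by the second. Against aging it was 1.63-fold and at least 1.59-fold lower, but with normexp background correction (described below) these log2 differences shrank to -0.10 and to -0.059 or lower. With that correction the differences from young shrank too. They came to -1.51 and -1.95 in aging, and to -1.61 and to -2.01 or lower in suppressed aging. The median pixel of the aging spot of the second probe was 4.5 counts above its local background. Sinhcaf, a protein-coding gene that overlaps it, read 2.54, 3.34 and 2.66 and was 0.80 higher in aging than in young.

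**Figure D2:**
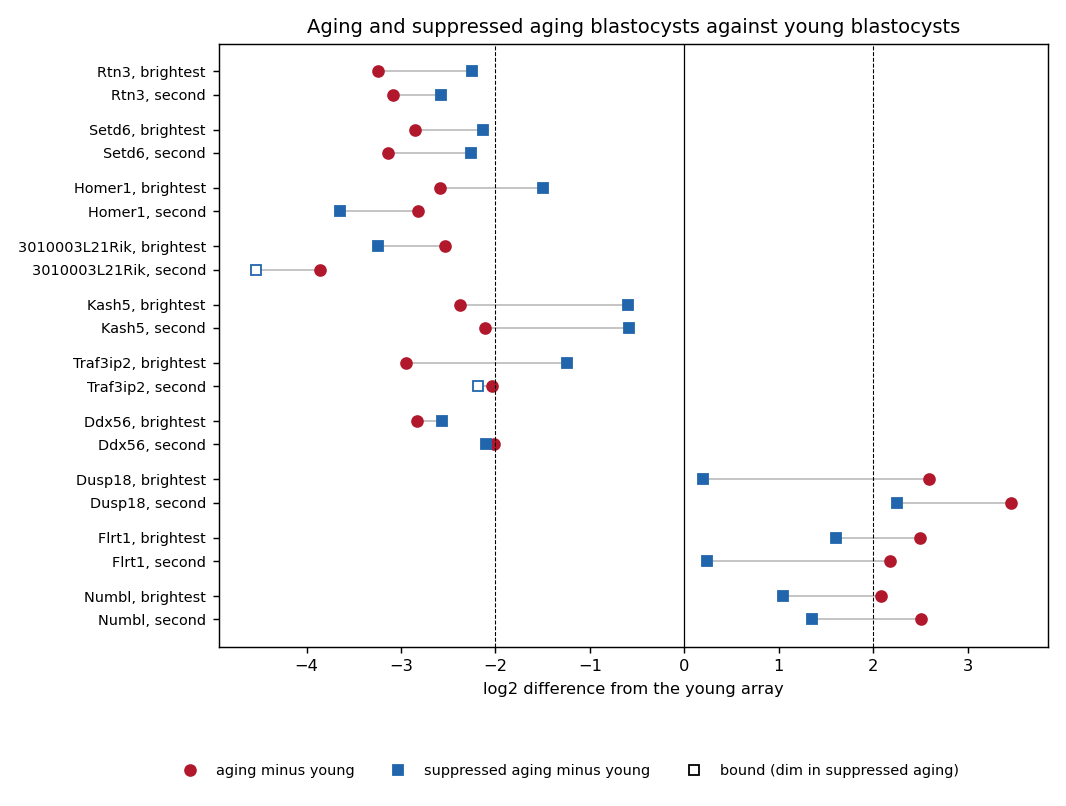
Log2 difference from the young array (horizontal axis) of the aging array (circles) and of the suppressed aging array (squares) for the 2 brightest probes of the 10 genes (vertical axis), with dashed lines at 4-fold and open squares for bounds. All circles lie outside the dashed lines since this chose the genes. The squares lie on the same side of 0 as the circles in all 20 rows. Both are differences from the young array that helped to choose the genes, which favours the same side in advance.

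Over the 22 probes, 20 were over 4-fold apart between aging and young, 14 lower and 6 higher, beside 4.85% of all probes compared (2.60% lower and 2.25% higher), a count that the choice of genes fixes. For suppressed aging the rule used no value, but the young array that it is compared with is the one that selected the genes, and so is the aging array. Of 21 probes compared between suppressed aging and young, 10 were over 4-fold lower and 1 higher, beside 4.18% of all probes in either direction (2.09% lower and 2.10% higher). The 10 were both probes of Rtn3, Setd6, Ddx56 and 3010003L21Rik and the second probes of Homer1 and Traf3ip2, and the 1 was the second probe of Dusp18. The values of 2 of them, the second probes of 3010003L21Rik and Traf3ip2, are bounds. Between suppressed aging and aging, 1 of 22 probes was over 4-fold apart, the brightest of Dusp18, which was lower, beside 4.13% of all probes (1.86% lower and 2.27% higher).

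By direction, the 14 chosen probes of the 7 genes lower in aging differed between suppressed aging and young by a median of -2.21 on the log2 scale, beside -0.0029 for all probes, and 2 of them, those of Kash5, were not over 2-fold apart. Between suppressed aging and aging 9 of the 14 were higher and 5 were lower, and the median was 0.61. Among the lower ones, the second probes of 3010003L21Rik and Traf3ip2 are bounds, and that of Traf3ip2 gives no direction. The second probe of Ddx56 was lower by only -0.085, and that of Homer1 changed direction with normexp background correction. In suppressed aging the 6 probes of the 3 genes higher in aging were all above young, with a median of 1.20. All were below aging, with a median of -1.18. The choice took genes with young and aging levels far apart, so a suppressed aging level between them was favoured in advance. These positions and medians are a description, and a return towards young was not tested. The gap between the differences that the 2 probes of a gene gave for suppressed aging against young had a median of 0.39 over the 8 genes measured by both, with a range of 0.019 to 2.15, beside 0.47 over all 4672 such genes. For suppressed aging against aging it was 0.42, beside 0.52. The choice asked the 2 probes to agree in direction between aging and young, and each gap shares 1 of these arrays. A smaller gap than over all genes can thus come from the choice, and this was not tested.

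**Figure D3:**
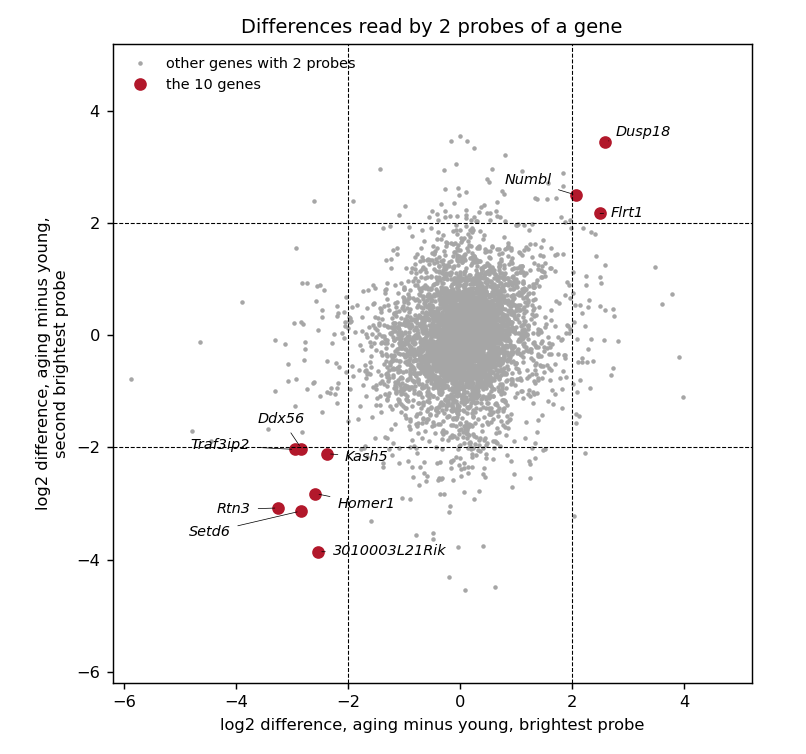
Log2 difference between aging and young of the brightest probe (horizontal axis) and of the second brightest probe (vertical axis) of 4861 genes, with dashed lines at 4-fold. The 10 genes lie in the corners where both probes moved over 4-fold the same way, 7 lower and 3 higher, and 3 other genes lie in the corners where they moved over 4-fold in opposite ways.

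The requirement of a second probe removed most genes. The brightest probe alone was over 4-fold apart between aging and young in 116 of the 4861 genes (2.39%). In 3 genes (0.0617%), chosen here after their values were seen, the probes were over 4-fold apart in opposite directions. These were Ankrd39, at 2.22 and -2.10 on the log2 scale, Nup188, a nuclear pore protein, at -2.60 and 2.39, and Ttpal, at 2.03 and -3.22. Just inside the threshold lay Ddx56 and Traf3ip2, with smaller differences of 2.02 and 2.04 in size, and just outside lay Inpp5e, a phosphoinositide phosphatase, with 1.96 and 2.07, and Tcf7, a Wnt transcription factor, with 1.98 and 1.91. In 15 genes the smaller of the log2 differences of both probes lay, in size, between 1.7 and the threshold. In 9 of the 10 genes both probes are assigned to the same transcript, and the spots of a pair lay at least 25 rows and 23 columns apart on the array.

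Among 4679 genes with 2 probes measured on all 3 arrays, those closest to the median pattern of the genes lower in aging, by the root mean square difference of levels centred per probe, were Ccnc (cyclin C, distance 0.11), with log2 differences of -1.59 and -3.32 between aging and young, and Hspa14, a ribosome-associated chaperone (0.17), with -2.83 and -1.72. Closest to the genes higher in aging were Smad3, a transcription factor of TGF-beta signalling (0.13), with 2.34 and 1.84, and Shf, an adaptor with an SH2 domain (0.16), with 1.84 and 2.66. This likeness rests on 3 arrays and is a description.

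The 10 genes lie on 7 chromosomes. Rtn3 and Flrt1 are both on chromosome 19 with 12 genes between them, of which 6 code for proteins, and they differed in opposite directions. Dusp18 and Ddx56 share chromosome 11, and Kash5 and Numbl chromosome 7, with 85 and 678 genes between them, and these pairs differed in opposite directions too.

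**Figure D4:**
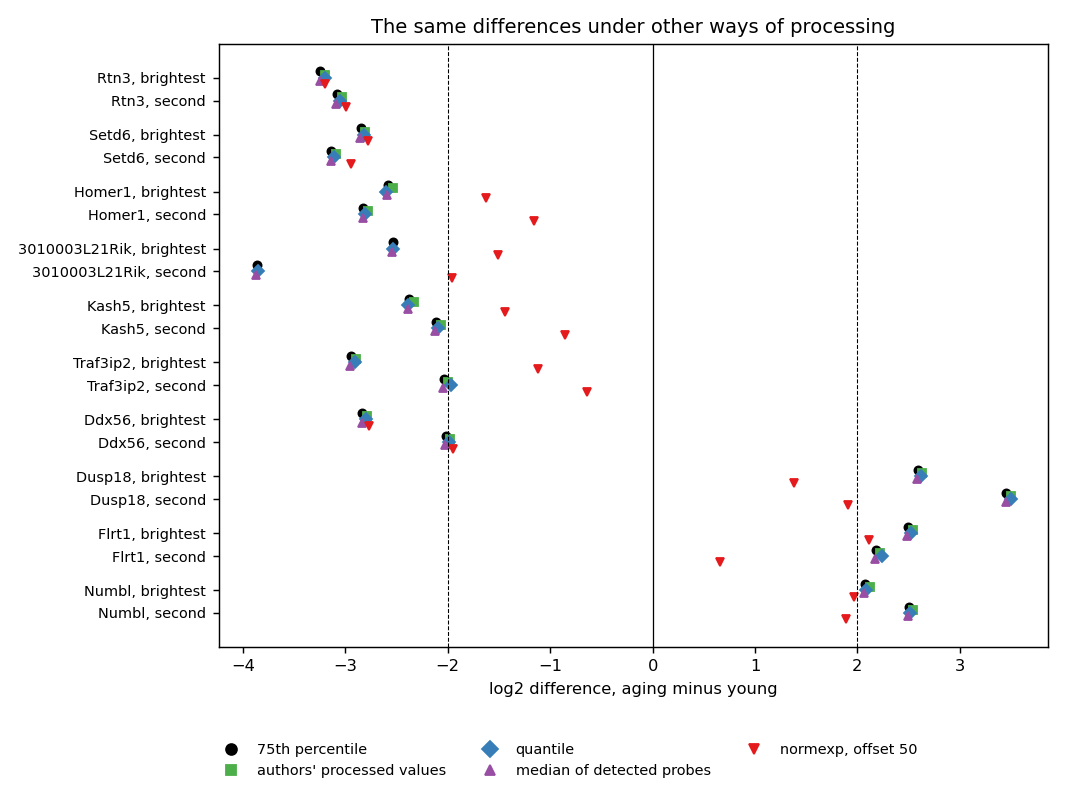
Log2 difference between aging and young (horizontal axis) of the 2 brightest probes of the 10 genes (vertical axis) under 5 ways of processing, with dashed lines at 4-fold. Normexp background correction with an offset of 50 brings the dim probes towards 0, while Rtn3 and Setd6 stay beyond 4-fold by both probes and no probe changes direction.

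The size of the differences between dim spots depended on the processing. With normexp correction of the median pixels and an offset of 50, the 20 probes kept their direction between aging and young, and Rtn3 (-3.20 and -2.997) and Setd6 (-2.78 and -2.95) stayed over 4-fold apart by both probes. Ddx56 came to -2.77 and -1.95, and Numbl to 1.96 and 1.89, just under the threshold. The log2 differences of Traf3ip2 shrank to -1.12 and -0.64, those of Kash5 to -1.44 and -0.86, and those of Homer1 to -1.63 and -1.15. Those of Dusp18 came to 1.38 and 1.91, and those of 3010003L21Rik to -1.51 and -1.95. The second probe of Flrt1 came to 0.66. An offset adds the same intensity to every spot, so it shrinks the differences of dim spots more than those of bright spots.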

How the data were processed

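RNA of 1 pool of 30 blastocysts per condition was read on Agilent SurePrint G3 mouse arrays with 1 dye (Cy3), all 3 on 1 slide in 1 scan. The methods describe a single-primer global PCR amplification, whereas the labels name a low-input cRNA labelling kit, and neither can be read from the files. The authors deposited a linear intensity per spot, after Feature Extraction 12.0.3.1 had subtracted background and spatial trends, with no normalization between arrays. Their table of processed values holds the same intensity times 1 factor per array (3.46, 3.34 and 3.96), which fits 100% of spots within 0.1%.

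Here control spots and spots marked as outliers (100, 85 and 118) were left out, spots of a probe were averaged as log2, and each array was centred on its 75th percentile. Probes were named through their RefSeq accession and a gene table of GRCm38.p6 (33759 of 56591 probes, 23458 genes), and since the array's design names an older build, positions from that table were used for order and overlap only. The authors' flag for well above background marked 33060, 33209 and 31892 probes. Where a probe was above background on 1 of 2 arrays, the difference is a bound against the lowest level above background on the other array (-4.20, -4.32 and -3.93) or the probe's own level there if higher. The 2 brightest probes of a gene are those with the highest mean level on the young and aging arrays. No test was made. The 10 genes and the lists of related genes were chosen with earlier results of these data known. Named besides the 10 are, per list, genes over 4-fold apart or else the 1 with the largest difference measured on both arrays. So are 2 genes just outside the threshold, and 2 genes per direction closest in pattern. Outside this rule, cell type markers, genes that overlap the 10 and genes with probes in opposite directions are named. Some related genes are also named for another probe over 2-fold apart, which was not done for every list.

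Alternatives were normexp background correction (limma 3.58.1, R 4.3.3, offset 50), quantile normalization, the authors' processed values, the median of the probes above background everywhere as the centre, outlier spots kept, other filters and brightness ranks, the mean over the probes of a related gene, and thresholds of 2-fold and 5-fold. The files hold the median pixel of a spot and its background, and normexp used these. The procedure was tested on simulated data. Scripts ran in Python 3.11.15 (pandas 2.3.3, NumPy 2.4.6, Matplotlib 3.10.9).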

Additional observations from a re-analysis of the deposited data

How the results depend on the processing

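No paired analysis was possible because a condition is 1 array. With 1 pool per condition the spread between embryos is unknown, and the size of a difference between dim spots depends on the processing. Normexp changed the signal used, its correction and an added offset at once, and their separate parts were not tested. With it 2 of the 10 genes kept both probes over 4-fold apart, and 2 genes of 4861 did in all. The probes over 4-fold apart came to 6 of 21 between aging and young, 7 of 21 between suppressed aging and young and 0 of 20 between suppressed aging and aging, the median size of the log2 differences between aging and young came to 1.90 in place of 2.59, and 10 in place of 20 related genes were over 2-fold apart. Between suppressed aging and aging 1 of 19 probes changed direction, the second of Homer1, from -0.82 to 0.026. With the authors' processed values 7 of 9 genes met the rule, Ddx56 and Traf3ip2 falling just short, and 2 probes were over 4-fold apart between suppressed aging and aging. With quantile normalization 8 of 10 did. Without a filter on dim probes 59 of 8055 genes met the rule. At 2-fold 138 genes did, and 10 probes were apart between suppressed aging and aging. At 5-fold 5 genes met it, all among the 10, and 5 probes were apart between suppressed aging and young. Of the related genes, 11 were over 2-fold apart by the mean over probes and 4 were over 4-fold apart by the brightest. Under quantile normalization, median centring, the authors' values and kept outlier spots, all measured differences of the 20 probes kept their direction in each comparison.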
